A study of Homo sapiens with 16 samples.

Results

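The comparison described here sets SK-N-BE(2) neuroblastoma cells that received the form of HIF-2α labelled NCTAD against cells of the same line labelled wild type (WT). It rests on 8 of the 16 RNA-seq libraries of the series, 4 a side, and on 19529 of the 63187 genes in the deposited table, those with enough counts, with EPAS1, the gene of HIF-2α itself, left out. The other 8 libraries came from cells with full-length HIF-2α (FL) or with a form labelled cIDR, and they entered the fit only to estimate the spread and for a direct comparison with NCTAD. The design text writes the 2 shortened forms with a Δ, as deletions, while the sample labels write them without it, so NCTAD is read here as HIF-2α that lacks its N-CTAD region. All 4 groups share the line, a MYCN-amplified human neuroblastoma line, as well as 21% oxygen and medium with 10% serum, and every group has 1 library in each of batches 1 to 4, where the replicate number is the batch. No label gives the vector, the residues removed, when RNA was taken or a mock treatment of WT cells, so transfection as such and HIF-2α cannot be told apart in any comparison with WT. Nothing in the labels says that replicates were separate cultures, so p-values measure the spread between these libraries, which may be technical.

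HIF-2α is an oxygen-regulated transcription factor that pairs with ARNT and binds short DNA elements near its target genes. At normal oxygen, prolyl hydroxylases of the EGLN family mark it for capture by VHL and destruction, and its transactivation domains recruit the coactivators p300 and CBP when it escapes. HIF-1α and HIF-2α share many targets, and HIF-2α is known in sympathetic and neuroblastoma cells for its links to vascular and catecholamine genes.

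Totals were 41.4 to 51.0 M (mega) counts in the WT libraries and 46.4 to 56.1 M in the NCTAD libraries. As a check of the labels, EPAS1 was 13.0 to 28.1 counts per 1 M counts (CPM) in WT and 1320 to 4230 CPM in NCTAD, a log2 fold change of 7.13 ± 0.39 (SE, edgeR adjusted p 4.51e-07). Reads of the endogenous gene and of the transfected sequence are counted together there. The 25 listed adrenergic neuroblastoma genes summed to 8520 to 9440 TPM (transcripts per 1 M, a level scaled for length) in WT and 8460 to 8940 TPM in NCTAD. The 25 listed mesenchymal neuroblastoma genes summed to 1310 to 1530 and 1310 to 1550 TPM. Of the mesenchymal genes 13 were under 1 TPM in all 8 libraries, beside 1 of the adrenergic genes. HAND2, on the adrenergic list, was at 464 to 606 TPM in WT and 464 to 590 TPM in NCTAD. The 6 endothelial markers summed to 0.0244 to 0.418 TPM in WT and 0.15 to 0.473 TPM in NCTAD, with TEK at 0 in all 8 libraries, and the 6 leukocyte markers to 1.31 to 1.53 and 1.57 to 2.17 TPM. Fibroblast markers summed to 54.6 to 110 TPM in WT and 45.6 to 111 TPM in NCTAD, LUM and DCN among them, and Schwann cell markers to 4.64 to 6.95 and 4.36 to 8.22 TPM. Library 2 of both groups stood apart, with several hypoxia genes far above the other batches, so counts of called genes are also given without batch 2.

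Few genes passed the test against WT, and almost all of them were higher in NCTAD. At a Benjamini-Hochberg adjusted p under 0.05 in edgeR's quasi-likelihood test with batch in the model, 88 of the 19529 genes were called (0.451%), 81 higher (0.415%) and 7 lower (0.0358%), while 1163 genes had an unadjusted p under 0.05. Each of the 81 was higher in NCTAD in 4 of 4 batches and each of the 7 was lower in 4 of 4. The test itself weighs these within-batch differences, so this agreement of signs is no separate evidence. The 4 WT and 4 NCTAD libraries did not overlap for 30 of the 81 and for 5 of the 7, a separation that 279 of all tested genes (1.43%) showed. Rises had a median of 0.8 on the log2 scale, beside 0.016 over all tested genes, and 19 of them were under 0.5 while 31 were above 1. Because these are bulk libraries, a change in the share of cells that respond and a change in RNA per cell cannot be told apart. Protein-coding genes made up 80 of the 86 called genes found in GENCODE 29, beside 13556 of the 18654 tested genes found there.

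These calls rest on comparing libraries within their batch. Without the replicate block 4 genes (0.0205%) were called, all 4 among the 88, namely SOX7, RGMA and 2 genes without a symbol, so every other call named below was lost without it. With batch 2 left out 61 genes were called, 59 of them higher and 2 lower, and without batch 1, 3 or 4 the count was 41, 37 or 31. Leaving out 1 library gave 42 genes without WT replicate 1, 55 without WT replicate 2, 51 without WT replicate 4, 47 without NCTAD replicate 1, 48 without NCTAD replicate 3 and 45 without NCTAD replicate 4. DESeq2 called 167 genes, including all 88, with 139 higher. By limma on log2(TPM + 0.1) and log2(TPM + 1) fewer rises were called, 38 of 46 genes and 26 of 35. Values on the TPM scales below are given in that order. On these scales the median of all tested genes was −0.071 and −0.056.

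**Figure D1:**
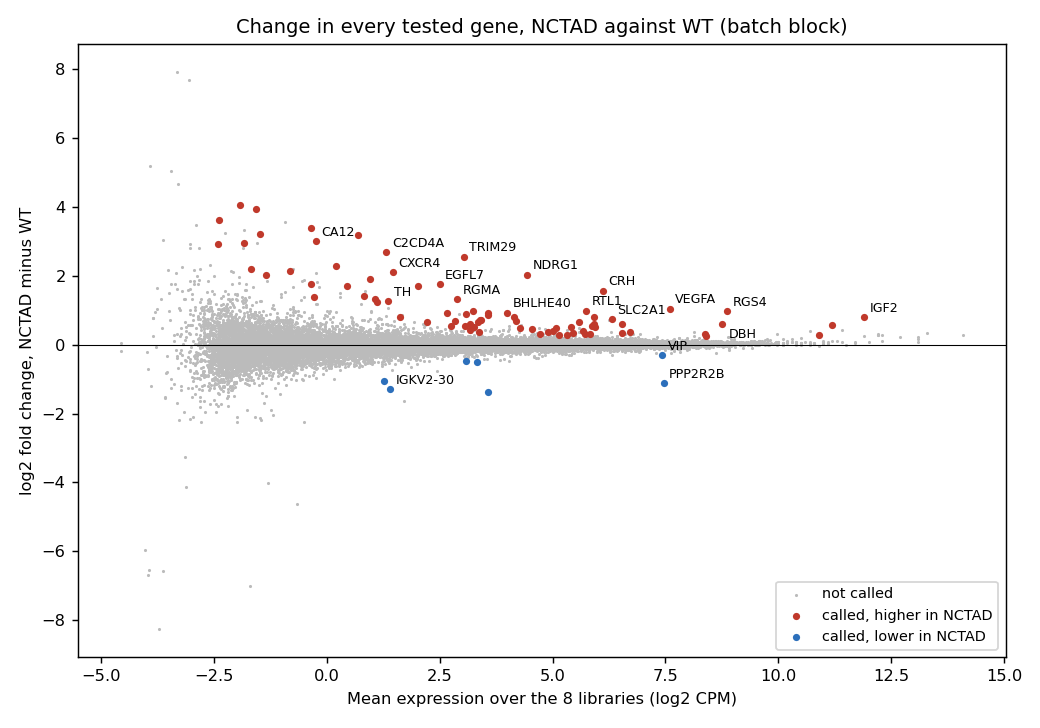
Each point is 1 of the tested genes, with its mean expression over the 8 libraries in log2 CPM on the horizontal axis and its log2 fold change, NCTAD minus WT, on the vertical axis. Red points are called genes higher in NCTAD and the 7 blue points are called genes lower in NCTAD, while ENSG00000287521, with 0 counts in every WT library, is not drawn.

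Genes of the hypoxia response were among those that rose. Of 43 listed targets, all tested, 9 rose and none fell, against 0.415% of all genes called higher: BHLHE40, VEGFA, CA12, ZNF395, ADM, NDRG1, SLC2A1, EGLN3 and PFKFB4. The median log2 fold change of the 43 was 0.18, 39 of them were above 0, and the medians within batches 1 to 4 were 0.27, 0.24, 0.17 and 0.13. A high count above 0 was not particular to this list, since 22 of 25 proliferation genes were above 0 with a median of 0.026. Without batch 2, 8 hypoxia targets were called and their median was 0.15. On TPM values with pseudocounts of 0.1 and 1 their median was 0.088 and 0.083 with 5 and 3 called. Without batch 1, 3 or 4, the hypoxia list held 2, 4 or 5 calls. It held 4 without WT replicate 1 and 5 without WT replicate 4 or NCTAD replicate 1, 3 or 4. Several well-known members did not pass the test, among them CA9 (−0.23, edgeR adjusted p 1.0), BNIP3 (0.12, 0.965), KDM3A (0.16, 0.54) and DDIT4 (0.20, 0.206).

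The short element bound by HIF and ARNT was looked up in the promoters of the called hypoxia targets, and the matches are shown so that the letters found can be read. A match is a description of sequence and no evidence of binding. The window was the 250 bases before the gene's start in RefSeq (GRCh38.p14), and each stretch, 5′ to 3′ on the gene's strand, holds a match with up to 10 bases on either side. Capitals mark ACGTG or GCGTG on either strand, where the palindrome CACGTG holds 1 match on each strand. The stretches are chr3:4979187-4979207 (+), chr3:4979253-4979277 (+) and chr3:4979278-4979302 (+) for BHLHE40, chr15:63382066-63382090 (−) for CA12, chr11:10304962-10304986 (+) for ADM and chr3:48556955-48556979 (−) for PFKFB4.
BHLHE40, far: tccaaCACGTGagactcatgt
BHLHE40, middle: cagtggccagACGTGcctggagtca
BHLHE40, near: cagggtagaaCACGTagctccaacc
CA12: ggatctcaccCACGCctgccagcag
ADM: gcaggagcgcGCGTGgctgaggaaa
PFKFB4: agttgggcatGCGTGgtcggaggcc
BHLHE40 held 4 matches, 149 to 245 bases before the RefSeq start, where CA12, ADM and PFKFB4 held 1 each and SLC2A1 and EGLN3 held 0 in this window. The windows of VEGFA, ZNF395 and NDRG1 are not shown. All of these stretches lie inside the genes' spans in GENCODE 29, chr3:48517684-48562015 for PFKFB4 and those given below for the others, which begin further upstream, so their distance from a start depends on the annotation. A match stood in 43.1% of the 27305 promoters of the same length in the table and 3 or more matches in 7.89%, and over the 11846 of these that belong to tested genes the shares were 57.0% and 12.2%. Of the 81 genes called higher 54 were in the table, under 80%, so a check of their share against other genes is void.

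BHLHE40, a transcriptional repressor that is a common HIF target, had the smallest p of the genes with a symbol. Its level in libraries 1 to 4 was 11, 15.9, 10.7 and 9.42 CPM in WT and 21.7, 29.9, 19.7 and 18.1 CPM in NCTAD. The lowest NCTAD library lay above the highest WT library, and the log2 fold change was 0.93 ± 0.077 (SE, edgeR adjusted p 5.92e-05), higher in 4 of 4 batches by 0.88 to 0.97. BHLHE40 lies at chr3:4979116-4985323 (GRCh38). VEGFA, the main growth factor for blood vessels (chr6:43770184-43786487), was 93.1, 312, 109 and 104 CPM in WT and 204, 495, 258 and 227 CPM in NCTAD. The groups overlapped because batch 2 was high in both, and the rise was 1.05 ± 0.11 (edgeR adjusted p 0.00035), from 0.66 in batch 2 to 1.24 in batch 3.

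NDRG1, a stress-responsive gene, differed widely between batches. It was 4.24, 109, 4.80 and 4.15 CPM in WT and 36.7, 161, 30.5 and 27.2 CPM in NCTAD. The log2 rise was 0.57 in batch 2, while batches 1, 3 and 4 rose by 3.10, 2.66 and 2.70. The joint rise was 2.03 ± 0.33 (edgeR adjusted p 0.0104), and without batch 2 it was 2.82 (6.35e-06). The call was lost without NCTAD replicate 1 (edgeR adjusted p 0.0603), NCTAD replicate 3 (0.052), WT replicate 1 (0.0711), WT replicate 3 (0.0658) or WT replicate 4 (0.0609), and without batch 1, 3 or 4 (0.127, 0.208 and 0.173), with a rise of 1.62 to 1.94 in each case.

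CA12, a membrane carbonic anhydrase that handles acid (chr15:63321378-63382161), rose most among the list members, from a low level. It was 0.146, 1.53, 0.0483 and 0.263 CPM in WT and 2.65, 4.75, 1.72 and 1.42 CPM in NCTAD, a rise of 3.00 ± 0.42 (edgeR adjusted p 0.00298) in 4 of 4 batches. The WT libraries held 2 to 82 counts of it, and the groups overlapped by WT library 2. Its call ended without batch 1 (edgeR adjusted p 0.0703) or batch 3 (0.0615), and on log2(TPM + 1) its difference was 0.70 (limma adjusted p 0.127). ADM, which encodes the vasodilator peptide adrenomedullin (chr11:10304680-10307397), was 0.96, 1.51, 1.47 and 1.30 CPM in WT and 2.83, 4.97, 2.52 and 3.29 CPM in NCTAD. No WT library reached the lowest NCTAD library, and the rise was 1.34 ± 0.22 (edgeR adjusted p 0.00861). For ADM the adjusted p was 0.0586 without NCTAD replicate 4, 0.0642 without WT replicate 1, 0.0518 without WT replicate 2, 0.109 without batch 1 and 0.103 without batch 2, and by limma 0.0621 on log2(TPM + 1).

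ZNF395, a DNA-binding protein that is a known hypoxia target, was 38.4, 81.8, 43.4 and 43.2 CPM in WT and 65.3, 127, 59.3 and 61.5 CPM in NCTAD, with an overlap through WT library 2. It rose by 0.59 ± 0.084 (edgeR adjusted p 0.00322) in 4 of 4 batches, and its adjusted p was 0.0799 without batch 1 and 0.396 and 0.402 by limma on the TPM scales. EGLN3, one of the hydroxylases that mark HIF-α for destruction, was 28.2, 51.8, 34.9 and 30.9 CPM in WT and 49.5, 64.3, 44.9 and 45.3 CPM in NCTAD. Its rise was 0.51 ± 0.093 (edgeR adjusted p 0.0196), in 4 of 4 batches. The EGLN3 call ended without NCTAD replicate 1, 3 or 4 (edgeR adjusted p 0.0844, 0.0745 and 0.10), without WT replicate 1, 2 or 4 (0.135, 0.105 and 0.0989), without batch 1, 3 or 4 (0.103, 0.133 and 0.196) and on the TPM scales (limma adjusted p 0.47 and 0.461). Among 12 HIF subunits, sensors and coactivators EGLN3 was the single call, with and without batch 2, against 0.415% of all tested genes called higher, and the list held no call on the TPM scales. The list's median was 0.012, or −0.026 to 0.031 with single libraries left out. HIF1A differed by −0.08 ± 0.11 and ARNT by 0.055 ± 0.061 (edgeR adjusted p 1.0 for each), and ARNT was at −0.10 and −0.092 on the TPM scales.

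**Figure D2:**
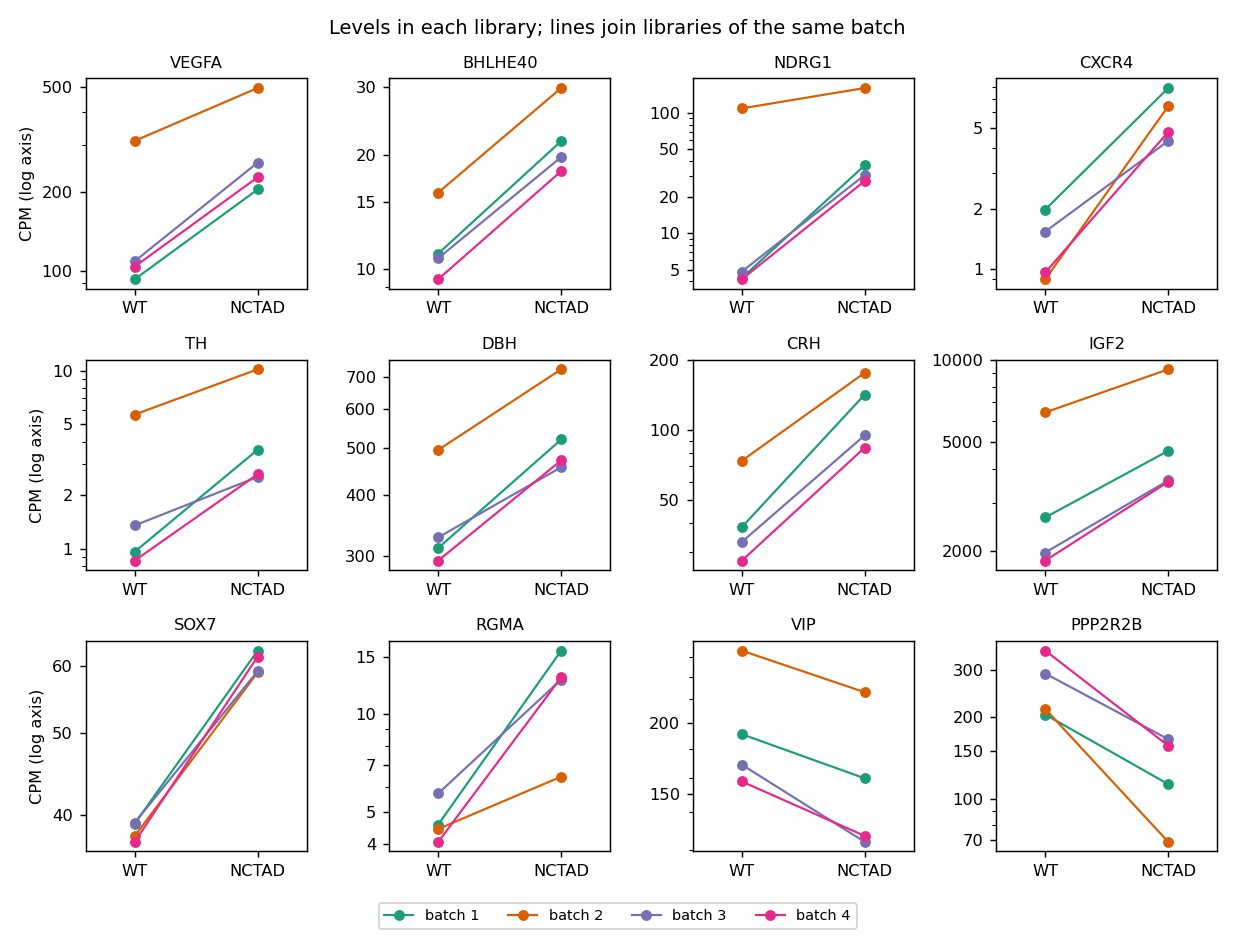
Levels of 12 genes in CPM on log axes, with 1 line for each batch from its WT to its NCTAD library. Every line of the first 10 genes goes up and every line of VIP and PPP2R2B goes down. For VEGFA, BHLHE40, NDRG1, TH, DBH, CRH, IGF2 and VIP the batch 2 line lies above the others.

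Of 25 listed glycolysis and glucose transport genes 2 rose, SLC2A1 and PFKFB4, against 0.415% of all tested genes, with a list median of 0.11 (0.029 and 0.025 on the TPM scales) and 24 of 25 above 0. The list's medians within batches 1 to 4 were 0.23, 0.069, −0.0078 and 0.17. SLC2A1, the glucose transporter GLUT1 (chr1:42925375-42959176), was 52.0, 58.3, 74.6 and 64.8 CPM in WT and 102, 82.4, 115 and 116 CPM in NCTAD. The groups did not overlap, and the rise was 0.74 ± 0.13 (edgeR adjusted p 0.0129) in 4 of 4 batches. SLC2A1 was not called without NCTAD replicate 1, 3 or 4 (0.0819, 0.0681 and 0.0838), WT replicate 1, 2 or 4 (0.0836, 0.0792 and 0.0658) or batch 1, 3 or 4 (0.109, 0.118 and 0.184). PFKFB4, a bifunctional enzyme that tunes the flux of glycolysis, was 6.95, 27.7, 6.27 and 5.64 CPM in WT and 8.97, 36.5, 7.95 and 6.99 CPM in NCTAD. That is a rise of 0.36 ± 0.069 (edgeR adjusted p 0.0325), which was not called with any 1 of the 8 libraries or any 1 batch left out (0.0654 to 0.681). The enzymes of the pathway itself were not called by edgeR, among them HK2 (0.28, edgeR adjusted p 0.313), PGK1 (0.11, 0.919) and LDHA (0.062, 1.0). By DESeq2 the list held 3 calls, all higher, with SLC2A1 and PFKFB4 among them. By edgeR the list held 1 call without batch 2, NCTAD replicate 2 or WT replicate 3, and 0 without any other single library. It held 0 by limma on TPM values.

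Of the 18 genes listed as associated with HIF-2, 11 were tested, and 2 of these rose, CXCR4 and VEGFA, against 0.415% of all tested genes, with a median of 0.18 (also 2 called without batch 2). The list held 1 call without batch 1 or 4. Its median was 0.079 without WT replicate 1, 0.10 without NCTAD replicate 4 and −0.012 and −0.013 on the TPM scales. Within batches 1 to 4 it was 0.24, 0.11, −0.049 and 0.055. CXCR4, the receptor of the chemokine CXCL12 (chr2:136114349-136118165), was 1.98, 0.894, 1.54 and 0.966 CPM in WT and 7.92, 6.44, 4.33 and 4.80 CPM in NCTAD. All NCTAD libraries were above all WT libraries, and CXCR4 rose by 2.10 ± 0.32 (edgeR adjusted p 0.00483) in 4 of 4 batches, with the same call when any single library was left out. Without batch 1 or batch 4 its adjusted p was 0.0581 and 0.0997. The ligand CXCL12 differed by −0.055 (edgeR adjusted p 1.0). FLT1, a VEGF receptor, was 1.32, 0.726, 1.47 and 2.37 CPM in WT and 2.16, 2.26, 3.58 and 3.18 CPM in NCTAD, a difference of 0.96 ± 0.22 that did not pass the test (edgeR adjusted p 0.0976). It passed without WT replicate 4 (1.19, edgeR adjusted p 0.0448) and by DESeq2 (0.95, adjusted p 0.00924).

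Among 20 vascular ligands and receptors 16 were tested and 3 rose against 0.415% of all tested genes, the VEGFA, ADM and CXCR4 already described, with a list median of 0.082. The list held 1 call without batch 1 and 2 without batch 2, and its median was 0.042 without NCTAD replicate 4, 0.14 without WT replicate 3 and 0.042 and 0.04 on the TPM scales. EGFL7, a secreted protein best known from endothelium (chr9:136658856-136672678), was 2.13, 14.5, 1.81 and 1.47 CPM in WT and 15.1, 29.8, 4.72 and 5.59 CPM in NCTAD. WT library 2 lay within the NCTAD range, and the rise was 1.75 ± 0.24 (edgeR adjusted p 0.0022), highest in batch 1 at 2.80. SOX7, a SOX-family transcription factor known from endothelium and heart, varied little within each group, at 39.1, 37.8, 39.2 and 37.2 CPM in WT and 62.6, 59.0, 59.2 and 61.6 CPM in NCTAD. It rose by 0.66 ± 0.082 (edgeR adjusted p 0.00116) and was called without the block as well (0.0262). FGD5 and ENG, endothelial genes chosen after their values were seen, were called too, at 3.94 ± 0.59 (edgeR adjusted p 0.00473) and 0.70 ± 0.14 (0.0404), with FGD5 at most 0.316 CPM in WT and 0.71 to 2.93 CPM in NCTAD. FGD5 was not called without batch 2 or 4 (edgeR adjusted p 0.0675 and 0.0627) or by limma on log2(TPM + 1) (0.492). ENG lost its call with any 1 of the 8 libraries left out, with any 1 batch left out (edgeR adjusted p 0.161 to 0.198) and on both TPM scales. All 6 endothelial markers were under 1 TPM in all 8 libraries, with KDR at 0 in every NCTAD library and PECAM1 and CLDN5 at no more than 3 counts there. Of the 2 tested, CDH5 differed by 2.11 (edgeR adjusted p 0.121) at no more than 0.284 TPM and VWF by 0.88 (0.682) at no more than 0.166 TPM, both higher in 4 of 4 batches. CDH5 was called by DESeq2 (2.24, adjusted p 0.0422) and by edgeR with no low-count filter (2.12, 0.0345), and the part of these markers in the EGFL7, FGD5 and ENG rises was not tested.

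Of 25 listed adrenergic neuroblastoma genes 24 were tested, 4 rose, against 0.415% of all tested genes, and none fell. The 4 were TH, DBH and DDC, enzymes of catecholamine synthesis, and SLC18A1, a transporter that loads monoamines into vesicles. The median of the list was 0.036, or 0.019 to 0.045 with single libraries left out and −0.062 and −0.061 on the TPM scales. The 4 calls were kept with every single library left out and with batch 2 left out, while TH and DDC lost theirs without batch 4 (edgeR adjusted p 0.0566 and 0.0553). DDC was also not called by limma on log2(TPM + 1) or log2(TPM + 0.1) (adjusted p 0.334 and 0.348), where the list held 3 calls. TH, tyrosine hydroxylase, the rate-limiting enzyme of the pathway (chr11:2163929-2171877), was low at 0.96, 5.68, 1.35 and 0.856 CPM in WT and 3.60, 10.2, 2.53 and 2.62 CPM in NCTAD. The WT library of batch 2 exceeded 3 of the NCTAD libraries, and the rise within batches was 0.84 to 1.86, jointly 1.27 ± 0.17 (edgeR adjusted p 0.0022).

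DDC, which turns DOPA into dopamine (chr7:50458436-50565457), was 275, 322, 306 and 283 CPM in WT and 362, 393, 356 and 366 CPM in NCTAD, with no overlap and a rise of 0.32 ± 0.046 (edgeR adjusted p 0.00336). DBH, which turns dopamine into noradrenaline (chr9:133635348-133659344), was 311, 495, 327 and 293 CPM in WT and 520, 725, 456 and 471 CPM in NCTAD. DBH rose by 0.61 ± 0.067 (edgeR adjusted p 0.00035), by 0.48 to 0.74 within batches. SLC18A1, the vesicular monoamine transporter VMAT1, was 59.3, 109, 72.6 and 69.3 CPM in WT and 105, 134, 108 and 109 CPM in NCTAD, a rise of 0.59 ± 0.078 (edgeR adjusted p 0.00189). Its sister transporter SLC18A2 stood at 0.48 ± 0.12 without a call (edgeR adjusted p 0.163). Per length, DDC was at 246 TPM in WT and 288 TPM in NCTAD on average and TH at 2.47 and 4.96 TPM, so the first enzyme stayed far below the second in both groups. GATA3 and HAND2, factors of sympathetic identity, differed by −0.037 and 0.052 and MYCN by −0.0048 ± 0.047 (edgeR adjusted p 1.0 for each). MYCN was above 0 without NCTAD replicate 2 (0.012), NCTAD replicate 3 (0.014) or batch 3 (0.025).

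The peptide hormone gene CRH and the signalling regulator RGS4 rose, and the peptide gene VIP fell. Of 26 genes of the cAMP and immediate early response 24 were tested, 2 rose (CRH and RGS4) and 1 fell (VIP), against 0.415% and 0.0358% of all tested genes, and without batch 2 the list held 2 calls, both higher. The list's median was 0.044, or −0.0034 to 0.069 with single libraries left out and −0.031 and −0.027 on the TPM scales, where it held 2 calls and 1 call. CRH, corticotropin-releasing hormone, was 38.4, 73.9, 33.2 and 27.6 CPM in WT and 142, 176, 95 and 84.2 CPM in NCTAD. No WT library reached the lowest NCTAD library, and the rise was 1.57 ± 0.16 (edgeR adjusted p 0.000278), between 1.25 and 1.89 in each batch. RGS4, which switches off G-protein α subunits (chr1:163068775-163076802), was 305, 585, 268 and 261 CPM in WT and 706, 884, 539 and 543 CPM in NCTAD, a rise of 0.98 ± 0.10 (edgeR adjusted p 0.000291) that kept its call with every single library left out but not on log2(TPM + 1) (limma adjusted p 0.0621). VIP, vasoactive intestinal peptide (chr6:152750798-152759765), was 191, 267, 169 and 158 CPM in WT and 160, 226, 124 and 127 CPM in NCTAD, lower in 4 of 4 batches although the groups overlapped. Its log2 fold change was −0.31 ± 0.061 (edgeR adjusted p 0.0342), and its call ended without NCTAD replicate 1, 3 or 4 (0.0698, 0.212 and 0.23), WT replicate 1, 2 or 3 (0.151, 0.196 and 0.0794) or any 1 batch (0.0763 to 0.515) and on the TPM scales (limma adjusted p 0.08 and 0.0934). The immediate early genes FOS (0.093), JUN (−0.045), EGR1 (−0.025) and NR4A1 (0.21) were not called (edgeR adjusted p 0.487 to 1.0).

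A pair of called genes without a symbol, picked once their values were known, also passed the test without the block. ENSG00000275993 was 12.3 to 15 CPM in WT and 22.3 to 24.1 CPM in NCTAD, with no overlap and a rise of 0.80 ± 0.084 (edgeR adjusted p 0.000291, or 0.00916 without the block). In GENCODE 29 it is SIK1B, almost identical in sequence to the cAMP-induced kinase SIK1. SIK1 itself, at 0.79, did not pass the test (edgeR adjusted p 0.575), and how reads were divided between the pair is uncertain. ENSG00000287521 had 0 counts in every WT library and 22, 29, 95 and 54 counts in NCTAD (edgeR adjusted p 6.25e-05, or 0.0023 without the block). Against the 3 counts over the WT group that a count of 0 allows, NCTAD was at least 64.7-fold higher. Its reads may include some of EPAS1, which was not tested.

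RGMA, a membrane-anchored axon guidance cue and BMP co-receptor (chr15:93035273-93089204), was 4.59, 4.45, 5.72 and 4.06 CPM in WT and 15.7, 6.44, 12.8 and 13.0 CPM in NCTAD. The lowest NCTAD library, that of batch 2, was still above every WT library, and the rise was 1.32 ± 0.19 (edgeR adjusted p 0.00298), also called without the block (0.0337). Batch 2 rose by 0.53 and the other batches by 1.16 to 1.76. Without batch 1 or 4 the adjusted p was 0.0799 and 0.0826, and by limma on the TPM scales it was 0.050 and 0.0621, so that RGMA was not called there. By edgeR RGMA was the single call, with and without batch 2, among 23 tested genes of 28 listed for axon guidance and BMP signalling, against 0.415% of all tested genes called higher. The list held 2 calls by DESeq2, by edgeR with no low-count filter and by edgeR on the 8 libraries alone. The list's median was −0.0058 (−0.029 to 0.014 with single libraries left out, −0.093 and −0.076 on the TPM scales). The RGMA receptor NEO1 differed by 0.08 and the RGMA paralog RGMB by 0.0016, and the BMP-induced genes ID1, ID2 and ID3 by −0.016, −0.018 and 0.0016 (edgeR adjusted p 1.0 for each).

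IGF2, a fetal growth factor expressed from the paternal copy (chr11:2129112-2149603), was the most abundant called gene in CPM. Its level was 2660, 6440, 1980 and 1850 CPM in WT and 4660, 9250, 3630 and 3590 CPM in NCTAD, a rise of 0.80 ± 0.087 (edgeR adjusted p 0.00035) in 4 of 4 batches although the groups overlapped. IGF2-AS, chosen after its values were seen, was at 23.8 to 32.7 CPM in WT and 35 to 48.1 CPM in NCTAD, a rise of 0.49 ± 0.063 (edgeR adjusted p 0.00168). It overlaps IGF2 on the other strand, and the strand setting of the counting is not given in the sources used here, so reads of the pair may not be separate. IGF2, IGF2-AS and TH lie within 42.8 kb of chromosome 11, where 4 genes were tested.

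RTL1, a retrotransposon-derived gene of an imprinted cluster (chr14:100879753-100903722), was 37.0, 110, 23.7 and 21.4 CPM in WT and 69.3, 161, 56.7 and 51.6 CPM in NCTAD. It rose by 0.99 ± 0.10 (edgeR adjusted p 0.000278), by 0.54 in batch 2 and by 0.90 to 1.27 in the other batches. The span of RTL1 lies inside that of MIR493HG and overlaps MEG8, both on the other strand, so their reads may not be separate. On either side of RTL1, the genes DLK1, a non-canonical Notch ligand, and DIO3, which inactivates thyroid hormone, were called too. Both were chosen after their values were seen. DLK1 rose by 0.57 ± 0.08 (edgeR adjusted p 0.00298) at 1440 to 2910 CPM in WT and 2090 to 4100 CPM in NCTAD, and DIO3 by 1.71 ± 0.26 (0.00478) at 0.29 to 3.39 and 1.32 to 6.08 CPM. DLK1 was not called on the TPM scales (limma adjusted p 0.0777 and 0.0993), nor DIO3 without batch 1 or 3 (edgeR adjusted p 0.0817 and 0.115). The non-coding MEG3 of the same cluster differed by 0.39 ± 0.32 (edgeR adjusted p 0.989) and DIO3OS by 1.69 ± 0.43 (0.175), neither called.

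Some called genes lay near each other. Of the 86 called genes with a position in GENCODE 29, 30 (34.9%) had another called gene within 1 Mb, beside 1535 of the 18568 genes not called (8.27%) that had a called gene within 1 Mb. This is a description with no test, and gene density was not matched. Of the 30, 13 kept their call with every single library left out, 17 without batch 2 and 14 and 10 on the TPM scales. Among genes called without batch 1, 2, 3 or 4 the share with another such gene within 1 Mb was 20%, 23.7%, 36.1% and 23.3%, and on the TPM scales 22.2% and 14.7%. They formed 12 groups, all of whose called members rose, among them MAD2L1BP, RSPH9 and VEGFA within 157 kb of chromosome 6, EGFL7 and AGPAT2 within 28.6 kb and ADAMTSL2 and DBH within 127 kb of chromosome 9, and RGS16 and RGS8 within 86.0 kb of chromosome 1. The group with the most called members, 5, held PDLIM2, C8orf58, RHOBTB2, TNFRSF10B and STC1 in 1280 kb of chromosome 8. There 19 of 22 tested genes were above 0 with a median of 0.35, or 0.13 over those not called. PDLIM2 and RHOBTB2 lost their calls with any 1 batch left out (edgeR adjusted p 0.063 to 0.295). They also lost them on both TPM scales (limma adjusted p 0.111 to 0.133). C8orf58 lost its call without batch 1, 3 or 4 (edgeR adjusted p 0.104, 0.0875 and 0.15). TNFRSF10B, a death receptor for the ligand TRAIL, rose by 0.85 ± 0.11 and STC1, a secreted glycoprotein, by 0.80 ± 0.11 (edgeR adjusted p 0.0022 for each). TNFRSF10B was not called on the TPM scales (limma adjusted p 0.244 and 0.23), nor STC1 on log2(TPM + 1) (0.0581) or without batch 4 (edgeR adjusted p 0.0554). Their neighbours TNFRSF10D (1.85 ± 0.39) and LOXL2 (0.99 ± 0.22) were not called (edgeR adjusted p 0.058 and 0.0809). Among the neighbours listed here, all but VEGFA, EGFL7, DBH and LOXL2 were chosen after their values were seen.

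**Figure D3:**
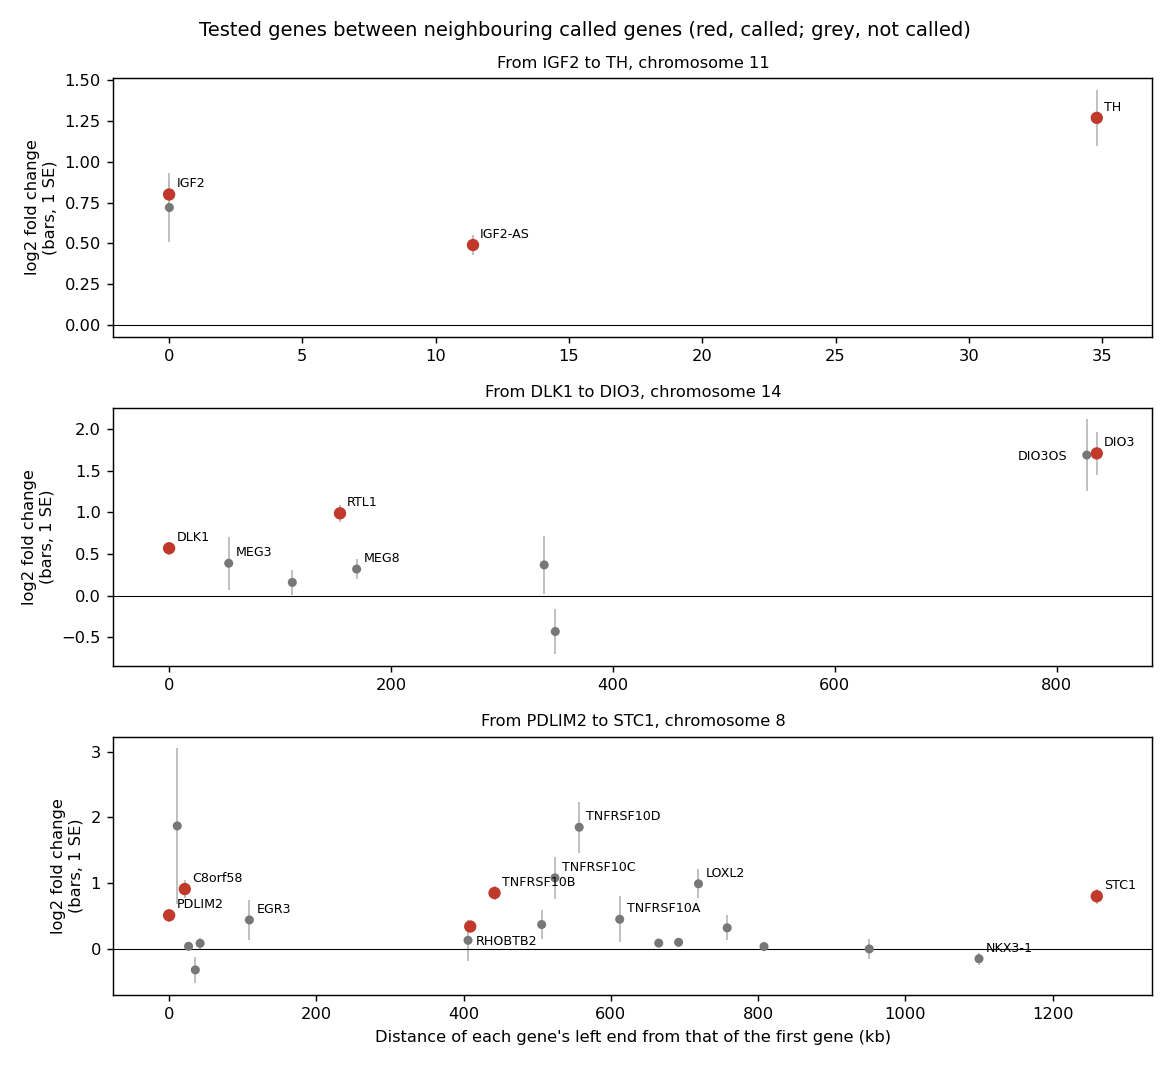
Log2 fold change (bars, 1 SE) of every tested gene with a position between called neighbours of chromosomes 11, 14 and 8, against the distance in kb from the left end of the first gene. Called genes are red and lie above 0 in all 3 stretches, with grey uncalled genes between them, most but not all of them above 0.

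The remaining named rises were genes of varied roles, each higher in 4 of 4 batches. C2CD4A, a nuclear factor known from pancreatic islets and inflammation (chr15:62066977-62070917), was 1.06, 4.00, 0.362 and 0.461 CPM in WT and 7.22, 12.1, 4.65 and 4.09 CPM in NCTAD, with no overlap and a rise of 2.69 ± 0.26 (edgeR adjusted p 0.000196). TRIM29, a TRIM-family protein of epithelial cells (chr11:120111275-120185529), was 1.32, 19.1, 2.24 and 1.32 CPM in WT and 19.2, 40.1, 17.7 and 18.3 CPM in NCTAD. Batch 2 started high and rose by 1.07 while the others rose by 2.96 to 3.83, for a joint value of 2.56 ± 0.36 (edgeR adjusted p 0.00298) and 3.50 without batch 2. Without batch 1, 3 or 4 the TRIM29 adjusted p was 0.0581, 0.0932 and 0.0627. CABP7, a calcium-binding protein (chr22:29720084-29731839), followed the same pattern, at 0.772, 23.0, 0.917 and 0.988 CPM in WT and 3.86, 38.3, 5.16 and 5.14 CPM in NCTAD, a rise of 1.71 ± 0.22 (edgeR adjusted p 0.00168) and 2.38 without batch 2. AQP10, a water and glycerol channel (chr1:154321090-154325325), was 8.47, 7.65, 5.52 and 5.36 CPM in WT and 20.4, 11.7, 11 and 11.2 CPM in NCTAD. The NCTAD libraries were all above the WT libraries, and AQP10 rose by 0.99 ± 0.11 (edgeR adjusted p 0.000447).

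Among the lower genes, PPP2R2B, a brain-enriched regulatory subunit of the phosphatase PP2A (chr5:146581146-147084784), was 205, 215, 291 and 354 CPM in WT and 113, 69.0, 166 and 157 CPM in NCTAD. No NCTAD library reached the lowest WT library, and PPP2R2B fell by 1.12 (SE 0.14, edgeR adjusted p 0.00137), a call kept with every single library left out.

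CERS1, a ceramide synthase of neurons, was 13.3, 12.3, 11.8 and 9.95 CPM in WT and 9.45, 8.88, 8 and 7.44 CPM in NCTAD. It fell by 0.49 (SE 0.071, edgeR adjusted p 0.00389) and kept its call with every single library left out, while its adjusted p was 0.0595 without batch 2, 0.115 without batch 3 and 0.0945 and 0.124 by limma on the TPM scales. CERS1 shares a transcript with GDF1, so the split of their reads is uncertain. IGKV2-30, DNM1P41 and AKR1C2 are members of families with near-identical copies, so their counts are uncertain. Their log2 fold changes were −1.30 ± 0.24, −1.05 ± 0.21 and −0.47 ± 0.10 (edgeR adjusted p 0.0239, 0.0374 and 0.047). Among the lower genes, these 3 lost the call most often with single libraries left out. IGKV2-30 kept its call without WT replicate 3 alone, DNM1P41 without NCTAD replicate 1 alone and AKR1C2 with no single library left out. Adjusted p where the call ended with 1 library out was 0.0545 to 0.135 for IGKV2-30, 0.062 to 0.236 for DNM1P41 and 0.0584 to 0.277 for AKR1C2. Each of the 3 also lost its call with any 1 batch left out, at 0.0545 to 0.239, 0.088 to 0.426 and 0.111 to 0.299. On the TPM scales AKR1C2 was not called (limma adjusted p 0.254 and 0.273), nor DNM1P41 on log2(TPM + 0.1) (0.0923).

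Lists of other programs held no call by edgeR, with or without batch 2. By DESeq2 the list of ER and amino acid stress held 1 call, higher in NCTAD. Of the mesenchymal neuroblastoma genes 18 of 25 were tested, with a median of −0.033 (−0.14 and −0.066 on the TPM scales) and 8 above 0, and the interferon response had 16 of 26 tested and a median of 0.082 (0.027 and 0.023). All 25 genes of ER and amino acid stress were tested, with a median of 0.11 (0.019 and 0.019 on the TPM scales) and 23 above 0, and HSPA5, the main ER chaperone, was at 0.11 (edgeR adjusted p 0.821). The median over the 25 proliferation genes was 0.026, with 22 above 0, and −0.07 and −0.069 on the TPM scales. There the median of all tested genes was −0.071 and −0.056. MKI67 was at −0.058 and CCNE1 at 0.31 (edgeR adjusted p 1.0 and 0.141). With single libraries left out the medians ran from −0.046 to 0.018 for mesenchymal genes, 0.043 to 0.16 for interferon, 0.081 to 0.13 for ER stress and −0.0015 to 0.053 for proliferation. Within batches the ER stress median ran from −0.00072 in batch 3 to 0.20 in batch 1, and that of proliferation from −0.066 in batch 2 to 0.15 in batch 1.

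How the NCTAD form differed from the other 2 forms was compared directly. Against FL 0 of 19529 genes were called (0.0%) by edgeR, with 721 at an unadjusted p under 0.05 and 12 called by DESeq2. The count was 2 without FL replicate 2, 5 without NCTAD replicate 2 and 5 without batch 2. Against cIDR 1 gene was called (0.00512%), PFKP, the platelet-type phosphofructokinase of glycolysis. PFKP was 8.45, 32.9, 9.66 and 8.86 CPM in NCTAD, 17.5, 55.2, 13.8 and 14 CPM in cIDR and 7.22, 33.0, 8.64 and 7.53 CPM in WT. NCTAD minus cIDR was −0.74 ± 0.084 (edgeR adjusted p 0.00609), with NCTAD lower in each batch, while NCTAD and WT differed by 0.15 (0.92). That count was 0 without NCTAD replicate 1 or batch 2, 3 or 4, and 2 without cIDR replicate 2. Without NCTAD replicate 2 the single call was a gene higher in NCTAD, so PFKP was not called there either.

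None of the 88 genes was called in either direct comparison, the lowest edgeR adjusted p being 0.126 against FL, for CERS1, and 0.321 against cIDR, for C2CD4A. The 3 forms share the WT libraries, so their values against WT are set side by side with no measure of likeness. CERS1 was −0.49 ± 0.071 in NCTAD, 0.0045 ± 0.071 in FL and −0.36 ± 0.071 in cIDR, and its direct difference from FL was −0.49 ± 0.071. C2CD4A was 2.69 ± 0.26 in NCTAD, 1.98 ± 0.26 in FL and 1.35 ± 0.26 in cIDR, with a direct difference from cIDR of 1.35 ± 0.24. CXCR4 was 2.10 ± 0.32 in NCTAD, 1.46 ± 0.32 in FL and 0.64 ± 0.33 in cIDR, and NCTAD exceeded cIDR by 1.46 ± 0.30 (edgeR adjusted p 0.47). IGF2 was 0.80 ± 0.087 in NCTAD, 0.28 ± 0.086 in FL and 0.55 ± 0.087 in cIDR, with a difference from FL of 0.52 ± 0.087 (edgeR adjusted p 0.284). VEGFA was 1.05 ± 0.11 in NCTAD, 0.47 ± 0.11 in FL and 0.89 ± 0.11 in cIDR, 0.58 ± 0.11 above FL (edgeR adjusted p 0.489). NDRG1 stood at 2.03 ± 0.33 in NCTAD, 1.56 ± 0.33 in FL and 2.49 ± 0.34 in cIDR. A p that misses the threshold does not show that the forms act alike.

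**Figure D4:**
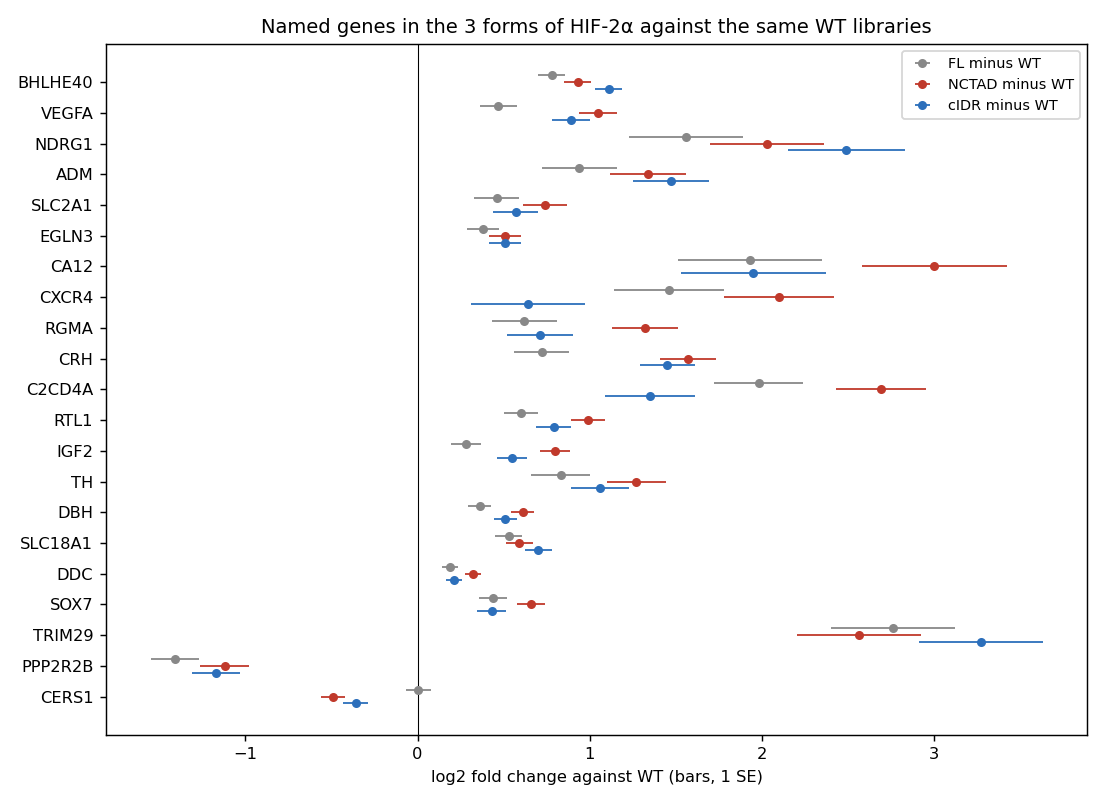
Log2 fold change against the same 4 WT libraries (bars, 1 SE) of 21 genes for FL in grey, NCTAD in red and cIDR in blue. For CXCR4 and C2CD4A the NCTAD point is to the right of the cIDR point, at 2.10 against 0.64 and 2.69 against 1.35, and for CERS1 the FL point is at 0.0045.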

How the data were processed

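Per the labels' protocols, about 250 ng of RNA went into each stranded mRNA library, with 13 cycles of PCR. The authors deposited estimated counts per gene (Salmon output by its file name, not scaled) and TPM values, which they scaled so that every library has an equal total. GRCh38, fastp, STAR, Salmon and featureCounts are named without versions or roles, per the submitters' processing notes, and the annotation release is not given in the sources used here. Column names differ from the labels (CTRL is WT, WT is FL, and NTAD is NCTAD) and give the line as BE2c where the labels give SK-N-BE(2), which was not settled here. Libraries were matched through the library name in the labels.

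The estimated counts were rounded to whole numbers, which changed 15.5% of them. Genes were filtered with filterByExpr by group, and edgeR 4.0.16 (R 4.3.3) fitted 1 quasi-likelihood model over the 16 libraries with group and batch, TMM normalization and Benjamini-Hochberg adjustment over 19530 genes. SEs were obtained as the log2 fold change over the root of the F statistic. CPM use TMM-scaled totals, and log2 CPM a prior count of 2. A count of 0 allows up to 3 counts. The batch block was the main fit because the labels give each replicate number as a batch. Deviations from the group means correlated across genes with r of 0.13 to 0.619 between WT and NCTAD libraries of the same number and −0.383 to 0.257 between different numbers. The biological coefficient of variation was 0.108 with the block and 0.245 without. Chi-square per degree of freedom between replicates was at least 6.97, so none were copies. The members of the comparison, the 12 gene lists, the 4 marker lists and the tests were chosen with earlier results of these data known. Named genes were, among called genes with a symbol and a mean log2 CPM of at least 1, the 10 rises with the smallest p, the 10 largest rises and all falls up to 10, then every called list member, then HIF1A, ARNT, MYCN, VEGFA, CXCR4, ADM, SLC2A1 and FLT1, and some genes that this rule names are not reported here. Others are marked as chosen after their values were seen. Gene positions are those of GENCODE 29 on GRCh38, found for 95.5% of tested genes, and promoters those of RefSeq. Alternatives used DESeq2 1.42.0, limma 3.58.1 on log2(TPM + 1) and log2(TPM + 0.1), other filters and normalization, and libraries or batches left out. Scripts were tested on simulated data, and figures were drawn with matplotlib 3.10.9.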

Additional observations from a re-analysis of the deposited data

Results flagged for a closer look

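Over the named genes 70 groups of 4 libraries were tested for 1 library far from the other 3, of which chance alone flags about 1 in 20, and 13 stood apart, 12 of them by library 2. In WT library 2, VEGFA was at 8.29 log2 CPM where the other 3 WT libraries were at 6.54 to 6.77, CABP7 at 4.52 (others −0.30 to 0.043), EGFL7 at 3.86 (0.60 to 1.12), ZNF395 at 6.35 (5.26 to 5.44), NDRG1 at 6.77 (2.07 to 2.28) and PFKFB4 at 4.80 (2.51 to 2.81). In NCTAD library 2, CABP7 was at 5.26 (others 1.96 to 2.38), SLC18A1 at 7.07 (6.72 to 6.76), TRIM29 at 5.33 (4.15 to 4.27), ZNF395 at 6.98 (5.89 to 6.03), NDRG1 at 7.34 (4.77 to 5.20) and PFKFB4 at 5.19 (2.81 to 3.17). AQP10 in NCTAD library 1 was at 4.36 log2 CPM, with the other 3 at 3.47 to 3.56. PFKP differed between 2 forms of HIF-2α by the edgeR test of the difference itself, with a log2 fold change of −0.74 for NCTAD minus cIDR (adjusted p 0.00609).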

How the results depend on the processing

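All 88 called genes kept their direction in each alternative in which they were tested. The count of 88 called genes against WT was 4 with no replicate block, 167 with DESeq2, 148 with no low-count filter, 46 and 35 by limma on log2(TPM + 0.1) and log2(TPM + 1), 41, 37 and 31 without batch 1, 3 or 4, and 42 to 82 with single libraries left out. Against FL the count of 0 was 12 with DESeq2, 18 with no filter, 5 without batch 2 and 0 to 5 with single libraries left out. Against cIDR the count of 1 was 21 with DESeq2, 13 with no filter, 9 with the 8 libraries alone, 0 to 2 with single libraries left out, and 0 with no replicate block, on both TPM scales and without batch 2, 3 or 4. The cause of these moves was not tested. On log2(TPM + 0.1) and log2(TPM + 1) the list medians were −0.083 and −0.079 for HIF subunits, 0.088 and 0.083 for hypoxia targets, −0.012 and −0.013 for HIF-2-associated genes, −0.031 and −0.027 for the cAMP response, −0.093 and −0.076 for axon guidance, −0.062 and −0.061 for adrenergic genes, 0.019 and 0.019 for ER stress, 0.029 and 0.025 for glycolysis, 0.042 and 0.04 for vascular genes, 0.027 and 0.023 for interferon, −0.07 and −0.069 for proliferation and −0.14 and −0.066 for mesenchymal genes. The median of all tested genes was then −0.071 and −0.056. Reversed signs, none of them of a called gene, were ARNT (−0.10 and −0.092) on these TPM scales, and MYCN without batch 3 (0.025) (range with single libraries left out −0.032 to 0.014). Over the named genes and all alternatives 538 results kept their side of the threshold, 153 lost the call and 3 gained it. Depth limits genes such as CA12 and FGD5, with few counts in WT.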
